A study of Caenorhabditis elegans with 2 samples.

Results

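The 7 microRNA (miRNA) genes of the mir-35 cluster of Caenorhabditis elegans, cel-mir-35, cel-mir-36, cel-mir-37, cel-mir-38, cel-mir-39, cel-mir-40 and cel-mir-41, were examined for binding of a tagged TBX-11 protein in early embryos. They are 7 of the 261 miRNA genes in the annotation. The cluster was chosen by its peak calls in these same lists, so its peaks are given as a description and no test is attached to them. It was followed from the first base of mir-35 to the last base of mir-41, together with the 2 kb upstream. Chromatin immunoprecipitation followed by sequencing (ChIP-seq) had been done on whole early embryos labelled as 1 hour old and obtained by bleaching, in 2 biological replicates of 1 group. Strain OP368 carries the integrated transgene wgIs368, a trimmed fosmid in which tbx-11 is fused to TY1, EGFP and 3xFLAG, with unc-119(+) as rescue marker, in an unc-119(tm4063) background. The tagged protein therefore came from an additional copy of the gene, and both replicates were of the same strain. The chromatin was sonicated to a labelled size range of 200 to 800, and the labels name an anti-GFP antibody in one place and tbx-11 in another. With 1 group there was no contrast between conditions.

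MiRNAs are short RNAs that pair through their seed, the bases near their 5′ end, with target messenger RNAs and lower their output. In C. elegans the mir-35 family is abundant in oocytes and early embryos, its members act redundantly, and embryos that lack the family die. TBX-11 belongs to the T-box family of DNA-binding proteins, many of which act in embryonic cell fate decisions and recognise a core sequence of the form GGTGTG.

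The cluster occupied 797 bp of chromosome II on the plus strand, chrII:11537608-11538404 of assembly ce11 (WBcel235). The hairpin genes were 87 to 98 bp long and the gaps between them were 8, 23, 2, 61, 8 and 32 bp from mir-35 to mir-41. All 7 lay within intron 2 of the protein-coding gene Y62F5A.9, which is annotated on the opposite strand. That intron spans chrII:11536066-11538445, so the nearest part of the 2 kb window also lay in it. Short non-coding RNA genes of the same strand overlap the cluster: Y62F5A.16 overlaps mir-35, Y62F5A.14 overlaps mir-36 and mir-37, and Y62F5A.15 overlaps mir-39.

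The mature RNAs from the 3′ arm are shown because they define the family. The peaks described next also lie on the hairpins that encode them, except those of mir-38 and mir-42. Sequences are those of the RefSeq annotation and genome of WBcel235, 5′ to 3′, with the seed (bases 2 to 8) in capitals.
mir-35: uCACCGGGuggaaacuagcagu
mir-36: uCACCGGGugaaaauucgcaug
mir-37: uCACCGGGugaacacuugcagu
mir-38: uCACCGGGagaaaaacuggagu
mir-39: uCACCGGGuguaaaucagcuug
mir-40: uCACCGGGuguacaucagcuaa
mir-41: uCACCGGGugaaaaaucaccua
mir-42: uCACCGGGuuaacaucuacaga
The seed CACCGGG was the same in all 7 members and in mir-42, the eighth gene of the family, which lies elsewhere on chromosome II next to mir-43 and mir-44. The mature RNAs were 22 nt long, and the first position at which the 7 members differed was position 9. Among the 21 pairs of members, 13 to 19 positions were equal, with a median of 15, and 11 positions were equal in all 7. Closest to mir-35 was mir-37, with 19 equal positions, and farthest among the members were mir-40 and mir-41, with 15 each. Despite this likeness, every run of 30 bases within the cluster, 768 in all, occurred once in the genome, counting both strands. Each member alone also had no repeated run of that length.

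The first cluster peak overlapped mir-35, mir-36 and mir-37, and it was the sole peak of the cluster in any of the 4 thresholded lists. It spanned chrII:11537587-11537916, and its summit at 11537752 lay inside mir-36, 144 bp downstream of the first base of mir-35. The summit was 48 bp from mir-35, 81 bp from mir-37 and 181 bp from mir-38. The second cluster peak overlapped mir-39, mir-40 and mir-41, and it stayed a candidate in all 4 ranked lists. It spanned chrII:11538062-11538391, with its summit at 11538227 inside mir-40. Both windows of 201 bp centred on the summits are shown, on the plus strand of WBcel235 from RefSeq, with the annotated mature arms in capitals, because they place the summits among the mature RNAs. The first is chrII:11537652-11537852 and holds the 3′ arm of mir-35 and both arms of mir-36. The second is chrII:11538127-11538327 and holds the 3′ arm of mir-39, both arms of mir-40 and the first bases of the 5′ arm of mir-41.
first cluster peak: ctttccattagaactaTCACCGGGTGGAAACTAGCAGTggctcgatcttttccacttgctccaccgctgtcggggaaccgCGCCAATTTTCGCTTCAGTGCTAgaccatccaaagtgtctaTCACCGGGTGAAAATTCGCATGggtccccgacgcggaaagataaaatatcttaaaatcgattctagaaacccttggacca
second cluster peak: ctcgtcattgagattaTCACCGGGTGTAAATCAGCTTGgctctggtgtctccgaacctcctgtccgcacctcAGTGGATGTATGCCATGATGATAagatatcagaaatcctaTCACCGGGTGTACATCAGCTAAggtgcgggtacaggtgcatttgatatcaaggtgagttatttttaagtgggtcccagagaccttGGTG
The summit of the first peak fell within the 5′ arm of mir-36, with the mature arm between bases 11537732 and 11537754. The GC content was 48.8% in the first window and 47.8% in the second, against a median of 45.8% over the 882 windows of the conservative thresholded list. Summit positions are not finer than the peak shape allows. In the conservative ranked list 99.8% of peaks were 330 bp wide with the summit at offset 165, so the summit was mostly the middle of a fixed window.

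**Figure D1:**
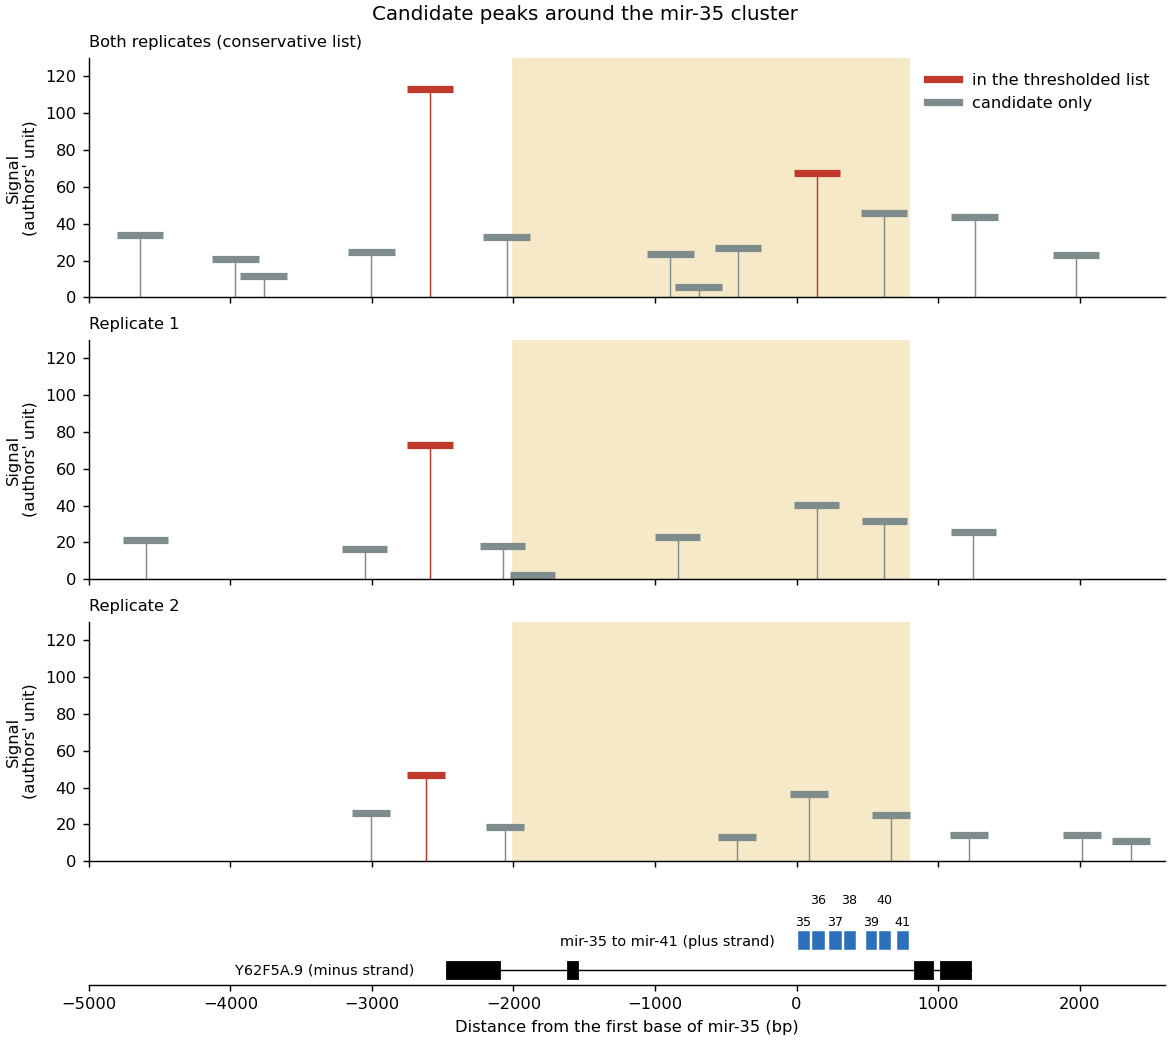
Signal (authors' unit) of every candidate peak against distance from the first base of mir-35 in bp, for the conservative list of both replicates and for each replicate, with the shaded band marking the cluster and its 2 kb upstream window and the lowest panel the genes. The peak over mir-35 to mir-37 reached the thresholded list in the pooled panel only, at 67.8, while the peak 2589 bp upstream of mir-35 was thresholded in all 3 panels.

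The signal of the first cluster peak was 67.8 in both pooled lists, 40.4 in replicate 1 and 36.6 in replicate 2. The signal is the authors' measure of peak strength, and its scale is not stated, so values are read against the list they come from. In the conservative thresholded list the first cluster peak ranked 805 of 882 by signal, at percentile 8.74 (the percent of the other peaks in the list that it exceeds), and its signal was 0.655 times the list median of 103. Among all candidates it stood far higher, at rank 1460 of 87796 in the conservative ranked list, 1466 of 105251 in the other pooled ranked list, 1831 of 55301 in replicate 1 and 1029 of 45180 in replicate 2. These are percentiles 98.3, 98.6, 96.7 and 97.7. The peak was weak among the thresholded peaks and strong among the candidates in every list. Since the cluster was chosen by its peak calls, its high place among the candidates follows in part from that choice.

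**Figure D2:**
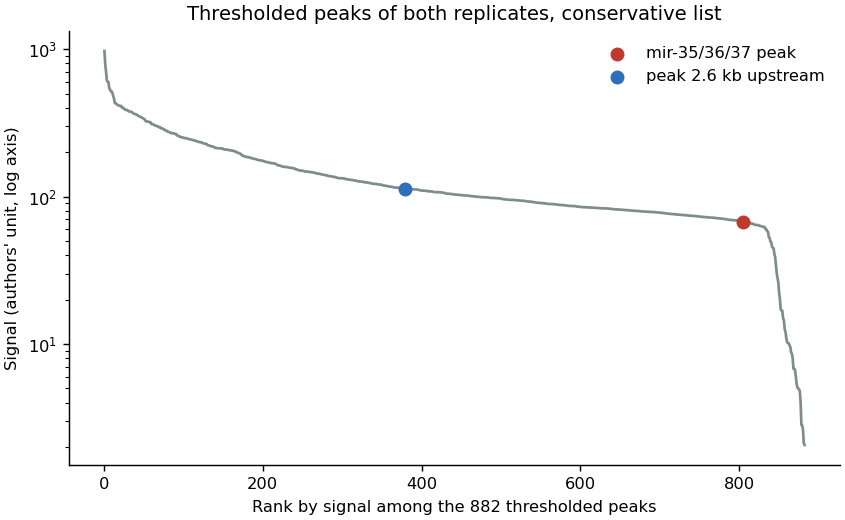
Signal (authors' unit, log axis) of the 882 peaks of the conservative thresholded list against their rank by signal, with the mir-35/36/37 peak in red and the peak upstream of the window in blue. The cluster peak lies at rank 805, just before the steep fall at the right, and the upstream peak at rank 379.

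The score runs up to 1000 and is higher the lower the irreproducible discovery rate (IDR), which measures how poorly a peak keeps its rank in a pair of analyses. Every thresholded peak had a score of at least 830. The first cluster peak had a score of 925 (IDR 0.00590) in the conservative list, and 644 (IDR 0.0280) in the other pooled list. It had 331 (IDR 0.159) in replicate 1 and 507 (IDR 0.0599) in replicate 2. Only the conservative score reached 830, and the peak was absent from the other pooled thresholded list and from those of both replicates. In the conservative ranked list 1002 candidates reached 830, more than the 882 peaks of its thresholded list. A score of 830 was thus not shown to be the only condition for entry. A candidate nevertheless overlapped it in both replicate ranked lists, by 320 bp in replicate 1 and by 243 bp in replicate 2. The summit of replicate 1 was 2 bp from the pooled summit, and that of replicate 2 was 57 bp nearer the start of the cluster, inside mir-35. The peak was thus in the thresholded lists of 0 of 2 replicates and overlapped a candidate in the ranked lists of 2 of 2. A replicate list derives from the alignments of that replicate alone, so its score does not compare the replicates. Absence from the thresholded replicate lists therefore does not show that the replicates disagree. The ranked lists are permissive, with 55301 candidates in replicate 1 and 45180 in replicate 2, and an overlap of 1 bp was enough. The share of other peaks with such an overlap was not computed, so the second count is a description only.

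The second cluster peak had a signal of 45.6 in both pooled lists, 31.7 in replicate 1 and 25.3 in replicate 2. Its scores were 465 in the conservative list, 504 in the other pooled list, 50 in replicate 1 and 119 in replicate 2. None of these reached 830. By signal it was at percentile 91.3 and 92.7 of the pooled ranked lists, 90.5 of replicate 1 and 88.9 of replicate 2. The summit was the same base in the pooled lists and replicate 1, and 50 bp farther on in replicate 2, between mir-40 and mir-41. In every ranked list the first peak thus stood above the second in signal and in score.

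**Figure D3:**
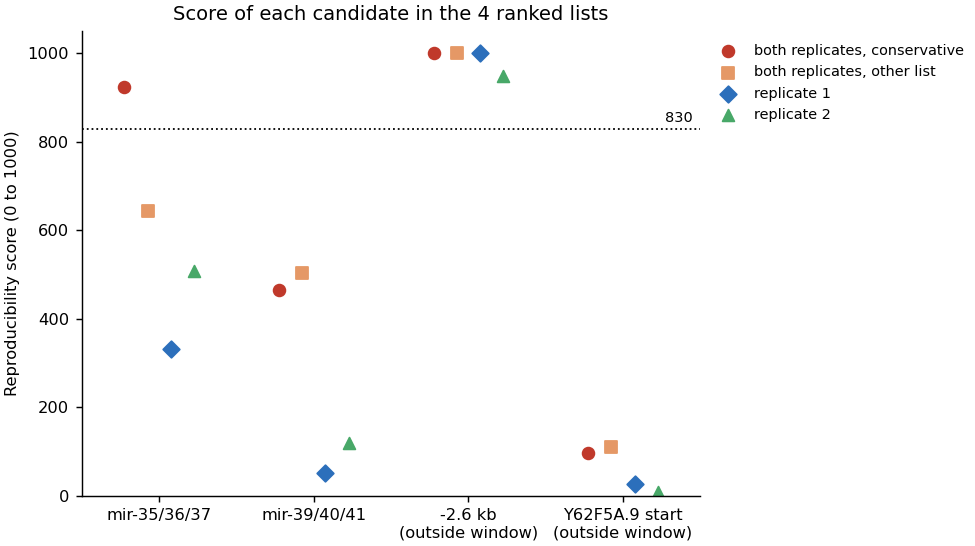
Reproducibility score (0 to 1000) of the candidates at mir-35/36/37, at mir-39/40/41, upstream of the window and at the start of Y62F5A.9 in the 4 ranked lists, with the dotted line at the lowest thresholded score of 830. At mir-35/36/37 the conservative list alone is above the line, at 925, and at mir-39/40/41 every list is below it.

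Member by member, a thresholded summit of the conservative list lay within 100 bp of mir-35, mir-36 and mir-37, which is 3 of 7 members and 1 distinct peak. Of all 261 annotated miRNA genes, 2.3% had such a summit (6 genes, 4 distinct peaks, Clopper-Pearson 95% interval 0.848 to 4.94%). In the other pooled thresholded list 0 of 7 members and 1.15% of all miRNA genes had one. In the thresholded list of replicate 1 it was 0 of 7 members and 0.766% of all, and in that of replicate 2 it was 0 of 7 members and 0.766% of all. Since these calls chose the cluster and neighbouring genes share 1 peak, nothing is read from the difference. Candidates were broader: 6 of 7 members had one within 100 bp in the conservative ranked list, against 35.6% of all miRNA genes. The other pooled ranked list gave 6 of 7 members and 40.6% of all, and replicate 1 gave 6 of 7 and 26.8%. In replicate 2 it was 4 of 7 members, mir-35, mir-36, mir-40 and mir-41, and 25.3% of all. The members always shared 2 distinct candidate peaks.

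Mir-38, in the middle of the cluster, was the member without a candidate summit within 100 bp in any list. Its nearest summit was 181 bp away in the pooled lists, 183 bp in replicate 1 and 238 bp in replicate 2, each time that of the first cluster peak. Mir-37 was 81 bp from a summit in the pooled lists, 83 bp in replicate 1 and 138 bp in replicate 2, which put it outside the 100 bp limit in replicate 2. Mir-39 was 52 bp from a summit in the pooled lists and replicate 1, and 102 bp in replicate 2, just outside the limit. Its neighbours mir-40 and mir-41 had summits at 0 and 81 bp in the pooled lists and replicate 1, and at 2 and 31 bp in replicate 2. The lower count of members in replicate 2 thus came from mir-37 and mir-39, each with a summit farther away there.

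The 2 kb upstream of mir-35 held no thresholded summit in any of the 4 lists. The conservative ranked list had 3 candidates there, at 892, 692 and 414 bp before mir-35, with signals of 23.8, 5.53 and 26.6 and scores of 84, 84 and 24. Replicate 1 had candidates at 1865 and 840 bp before mir-35, with signals of 2.45 and 23.0. Replicate 2 had 1, at 421 bp before mir-35, with a signal of 13.4. The replicate 2 candidate at 421 bp overlapped the pooled candidates at 414 and 692 bp. The replicate 1 candidate at 840 bp overlapped those at 892 and 692 bp. No replicate 1 candidate overlapped the pooled one at 414 bp, and no replicate 2 candidate the one at 892 bp. All upstream candidates were weaker than both cluster peaks of the same list. Over cluster and window, candidates numbered 1.79 per kb in the conservative ranked list, against 0.876 per kb of the nuclear genome. In the other pooled ranked list the densities were 1.79 and 1.05 per kb. In replicate 1 the density was 1.43 per kb over cluster and window and 0.551 over the genome, and in replicate 2 it was 1.07 and 0.451. These densities include the 2 cluster peaks, and the cluster was chosen by its peak calls, so nothing is read from the differences.

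The nearest thresholded peak outside the window was stronger than that of the cluster. It spanned chrII:11534854-11535183, with the summit 2589 bp before mir-35 and 589 bp outside the window. The peak had this summit 122 bp past the 3′ end of Y62F5A.9 and 540 bp upstream of the annotated start of Y62F5A.12. Its signal was 113 in the pooled lists, 72.9 in replicate 1 and 46.6 in replicate 2, and its scores were 1000 in the pooled lists and replicate 1 and 948 in replicate 2. It was in all 4 thresholded lists, at rank 379 of 882 in the conservative one. A closer candidate, 2049 bp before mir-35, had a signal of 32.5 and a score of 127 in the conservative ranked list. On the other side, a candidate had a signal of 43.9 and a score of 96 in the conservative ranked list. It was weaker within the replicates, with signal 25.5 and score 26 in replicate 1 and 14.1 and 8 in replicate 2. Its pooled summit was 463 bp past the end of mir-41, 28 bp from the 3′ end of dhgd-1 and 26 bp from the annotated start of Y62F5A.9. These annotated starts may be trans-splice sites. Around this region the nearest protein-coding starts on either side of the cluster were those of Y62F5A.12, 3129 bp before mir-35, and Y62F5A.9, 437 bp past mir-41, both on the minus strand.

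The window of 201 bp of the upstream peak, chrII:11534919-11535119, is shown on the plus strand because it held the T-box core match that both cluster peaks lacked, with motif matches in capitals (CAGTTG, an E-box, and CACACC, the T-box core GGTGTG on the minus strand).
upstream peak: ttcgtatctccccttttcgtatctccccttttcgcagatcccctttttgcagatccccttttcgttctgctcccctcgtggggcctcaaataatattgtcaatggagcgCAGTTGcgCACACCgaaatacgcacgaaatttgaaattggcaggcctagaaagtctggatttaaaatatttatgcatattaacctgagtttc
Of the 172 runs of 30 bases in this window, 72.7% occurred once in the genome, and the most repeated occurred 65 times. In the first and the second cluster peak 100% occurred once. Motifs were sought on both strands in each window. GGTGTG had 0 matches in the first cluster peak, 0 in the second and 1 in the upstream peak, 17 bp from its summit, and 9.64% of the 882 windows held it. The longer pattern AGGTGTGA had no match in the 3 windows, and 0.340% of the 882 windows held it. The E-box CANNTG had 1 match in the first cluster peak, at -48 bp from the summit, 2 in the second and 1 in the upstream peak, and 53.3% of windows held it. The B box GTTCGANNC of RNA polymerase III genes, in 23.5% of windows, the A box, in 6.24%, and TATAAA, in 11.9%, had no match in either cluster peak. The same held for GGGCGG (12.6% of windows), GAGAGA (22.9%), TTTCGCGC (2.15%), CTGCGTC (5.10%) and CGCGCA (15.4%). Of the 11 motifs, the E-box alone thus matched in the cluster peaks. A lack of match says only that those letters are not in these windows.

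Set among the miRNA genes, the first cluster peak was the fourth of 4 distinct thresholded peaks by signal. The others were at mir-51 (518), mir-52 (258) and mir-4936 (103), against 67.8 at mir-35 to mir-37. Mir-51 and mir-52, of another embryonic miRNA family, had scores of 1000 in all 4 ranked lists, whereas the cluster passed in 1. Among distinct candidate peaks at miRNA genes the first cluster peak ranked 5 in the conservative and the other pooled ranked list, 8 in replicate 1 and 4 in replicate 2. The second cluster peak ranked 20, 20, 15 and 12 in the same lists. Just below the lowest thresholded score, mir-8192 had the next score in the conservative ranked list, 793, with a signal of 73.6 that was above that of the cluster. Mir-1833 followed, with 711 and a signal of 62.1.

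**Figure D4:**
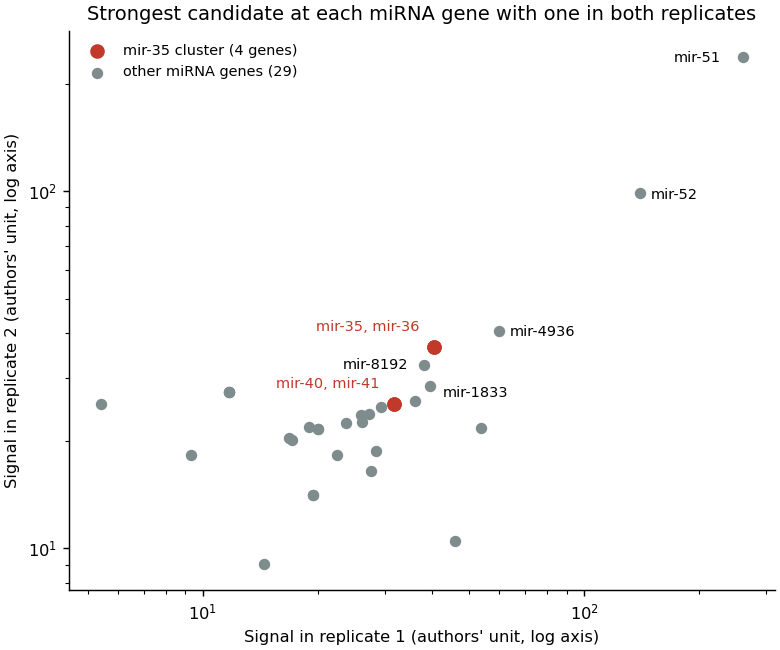
Signal of the strongest candidate within 100 bp of each of the 33 miRNA genes that had one in both replicates, replicate 1 against replicate 2 (authors' unit, log axes), with genes of the mir-35 cluster in red. Mir-35 and mir-36 share a point at 40.4 and 36.6, below mir-51, mir-52 and mir-4936 in both replicates, and mir-40 and mir-41 share one at 31.7 and 25.3.

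Of the 33 miRNA genes with a candidate in both replicates, 4 were members of the cluster, and of the 37 with one in replicate 1 only, 2 were members (mir-37 and mir-39). None of the 33 with one in replicate 2 only was a member. By the sum over the 4 ranked lists of the difference in percentile rank by signal, the miRNA genes most like the first cluster peak were mir-8192 (3.00 percentile points), mir-4936 (4.76) and mir-1833 (5.65), of 26 genes with a candidate in every list. Mir-8192 had scores of 793, 792, 44 and 79 in the conservative, other pooled, replicate 1 and replicate 2 ranked lists, and mir-4936 had 1000, 907, 25 and 354. Like the cluster, both thus had lower scores within each replicate than in the pooled lists.

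Mir-42, the member of the seed family outside the cluster, had no thresholded summit. With its neighbour mir-43 it shared a candidate of signal 39.7 in the pooled lists, 20.1 in replicate 1 and 21.5 in replicate 2, with scores of 169, 97, 182 and 21 in the 4 ranked lists. In each ranked list this candidate was below the second cluster peak in signal. By score it was above that peak in replicate 1, at 182 against 50, and below it in the other ranked lists. In replicate 2 the candidate also lay within 100 bp of mir-44. Of the family of 8, 3 genes had a conservative thresholded summit, all at 1 peak, against 2 of 6 of the mir-51 family at 2 distinct peaks and 2.3% of all 261 miRNA genes. It was 0 of 4 each for the let-7 family (larval timing regulators), the mir-58 family and the mir-64 cluster, and 0 of 8 for a mixed list of other miRNA genes such as lin-4 and lsy-6. In the conservative ranked list 7 of 8 family genes had a candidate, against 4 of 6 in the mir-51 family, 3 of 4 in the let-7 family, 2 of 4 in the mir-58 family, 3 of 4 in the mir-64 cluster, 4 of 8 in the mixed list and 35.6% of all miRNA genes. The order of the mir-35 and mir-51 families differed between lists. In replicate 1 it was 7 of 8 in the mir-35 family and 5 of 6 in the mir-51 family, against 26.8% of all, and in replicate 2 it was 5 of 8 and 6 of 6, against 25.3% of all. The members were chosen on these calls and share peaks, so nothing is read from these counts.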

How the data were processed

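ChIP-seq peak lists of 2 replicates on ce11 were used: 4 ranked lists of candidates and 4 thresholded lists. Replicate lists, per the deposited descriptions, derive from the alignments of that replicate and pooled lists from both, against shared control alignments. Aligner, peak caller and read filters are not given in the sources used here. Peak strength is the signal deposited by the authors, of unstated scale, used only to rank and describe peaks within a list. The deposited score, and the −log10 value deposited beside it in the ranked lists, express the IDR. The IDR printed was computed from that −log10 value. Each summit was the peak start plus the deposited offset. The lists hold no read counts, so depth is unknown and intervals cover counting error over genes only. In the ranked lists 32 columns of values from unnamed analyses were not used. A mock pull-down list was not used here.

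Genes came from Ensembl release 115, and mature miRNAs and sequence from RefSeq WBcel235. A gene counted as having a summit if one lay within 100 bp. The members, miRNA lists, windows and motifs were chosen with earlier results of these data known. Named genes were the members, mir-42 to mir-44, other miRNA genes with a summit in the conservative thresholded list, which was the main list, neighbouring protein-coding genes and the 3 miRNA genes nearest in percentile rank. The non-coding RNA genes that overlap the cluster were named by position, outside this rule. Alternatives were the other lists, each replicate, windows, distances, overlap rules and whole peaks for motifs. Scripts used Python 3.11.15, pandas 2.3.3 and scipy 1.17.1, and gene assignment and motif search were tested on simulated data.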

Additional observations from a re-analysis of the deposited data

How the results depend on the processing

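The 1 thresholded summit of the region became 0 in the other pooled thresholded list and among peaks at or above the list median signal, 2 with 5 kb upstream, and 0 to 0 with each replicate left out. The 3 member genes with a thresholded summit became 0 in the other pooled list, 1 at 0 bp, 6 at 500 bp, and 0 to 0 with each replicate left out. The signal of 67.8 became 36.6 to 40.4 in the ranked list of a single replicate, on its own scale. Its percentile of 8.74 became 98.3 and 98.6 in the pooled ranked lists and 96.7 to 97.7 with each replicate left out, where the lists hold all candidates and not the thresholded peaks alone. The share of all miRNA genes, 2.3%, became 4.98% at 500 bp and 0.766 to 0.766% with each replicate left out. The count of replicates with the peak was 0 by their thresholded lists. It became 2 by their ranked lists, an alternative chosen after seeing the data. The 5 candidates of the region became 3 to 4 with each replicate left out. The share of miRNA genes was 1.15% both at 0 bp and in the other pooled thresholded list, lower than 2.3%. The 95% interval of 0.848 to 4.94% around 2.3% holds this value, but it treats genes as independent, although 6 genes shared 4 distinct peaks. The same genes were counted again under each alternative, so the interval does not measure this change. Values under the alternatives not named here were equal to those reported. The other pooled and replicate thresholded lists hold no cluster peak, so they gave no signal or percentile. No paired analysis was possible because there was 1 group and no test. Lists without read counts set the limit: a member below the threshold may lack binding or lack depth, and these cannot be told apart.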
